A study of Mus musculus with 2 samples.

Results

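The TNF superfamily genes of the mouse were read for open chromatin in spleen. They were chosen by symbol among the protein-coding genes of the GENCODE M21 annotation: every Tnfsf gene (ligands) and Tnfrsf gene (receptors) with a number after that stem, together with Tnf, Lta, Ltb, Cd40, Cd40lg, Cd27, Cd70 and Fas. This gave 39 of 21938 protein-coding genes, 16 for ligands and 23 for receptors. The rule reads symbols only.

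DNase-seq cuts open stretches of chromatin with DNase I and sequences the cut ends, so that accessible sites appear as peaks. The tissue was whole spleen of male B6CASTF1/J mice aged 14 days, an F1 hybrid strain that both libraries share, with no treatment named. There was 1 group with 2 biological replicates, and the labels record 3 males behind replicate 1, 1 male behind replicate 2 and a single donor entry for both. Replicate 1 therefore pools animals, and no comparison between conditions exists. In a whole tissue, few open cells of a type and weakly open chromatin in many cells cannot be told apart.

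TNF superfamily ligands are mostly trimeric membrane proteins of immune cells, some of them shed, and they cluster their receptors on a neighbouring cell. Receptors without a death domain bind TRAF adaptors and switch on NF-kB and MAP kinase pathways, while receptors with a death domain can also recruit FADD or TRADD and caspases. In the spleen, lymphotoxin and TNF from lymphocytes organise the white pulp, and the ligands BAFF (Tnfsf13b) and CD40 ligand act on B cells for their survival and activation.

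The libraries differed in the number of listed peaks. Replicate 1 had 48286 peaks in the main list, the list with fewer bases, called strict here, and 71274 in the larger list. Replicate 2 had 28837 and 44049. In neither library did the larger list hold every strict peak. The signal of a peak is the deposited value of the authors, whose scale no source used here states, and the read depth is unknown. Among markers, a strict promoter peak in both libraries was found at 6 of 7 B cell genes and 5 of 6 erythroid genes. It was found at 2 of 6 T cell genes, 2 of 5 macrophage and dendritic genes, 2 of 8 stromal and endothelial genes and 0 of 3 natural killer genes. Over all protein-coding genes the share was 51.1%. Tlx1 and Nkx2-5, the spleen patterning genes that served as the tissue check, had no promoter peak in any list.

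Receptor genes, more than ligand genes, carried open promoters in both libraries. A strict peak within 1 kb of a start site was present in both libraries at 12 of 23 receptor genes (52.2%) and at 1 of 16 ligand genes (6.25%), Ltb. Over all members this was 13 of 39 (33.3%), against 51.1% of all protein-coding genes. The receptor share was thus near the background and the ligand share below it, and the difference between them was not tested. The ligand count moved with the library and list: it was 7 in replicate 1 whatever replicate 2 held (56.7% of all genes had a peak there), 2 in replicate 2 (51.4%) and 7 in the larger lists of both (56.1%). For receptors the matching counts were 14, 12 and 13. The larger lists one by one held a promoter peak at 28 of 39 members in replicate 1 (61.5% of all genes) and at 20 in replicate 2 (57.1%). Replicate 1 alone held 8 of the 39 promoters (20.5%) with no strict peak in replicate 2, against 5.59% of all genes, and 6 of these 8 were ligand genes.

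**Figure D1:**
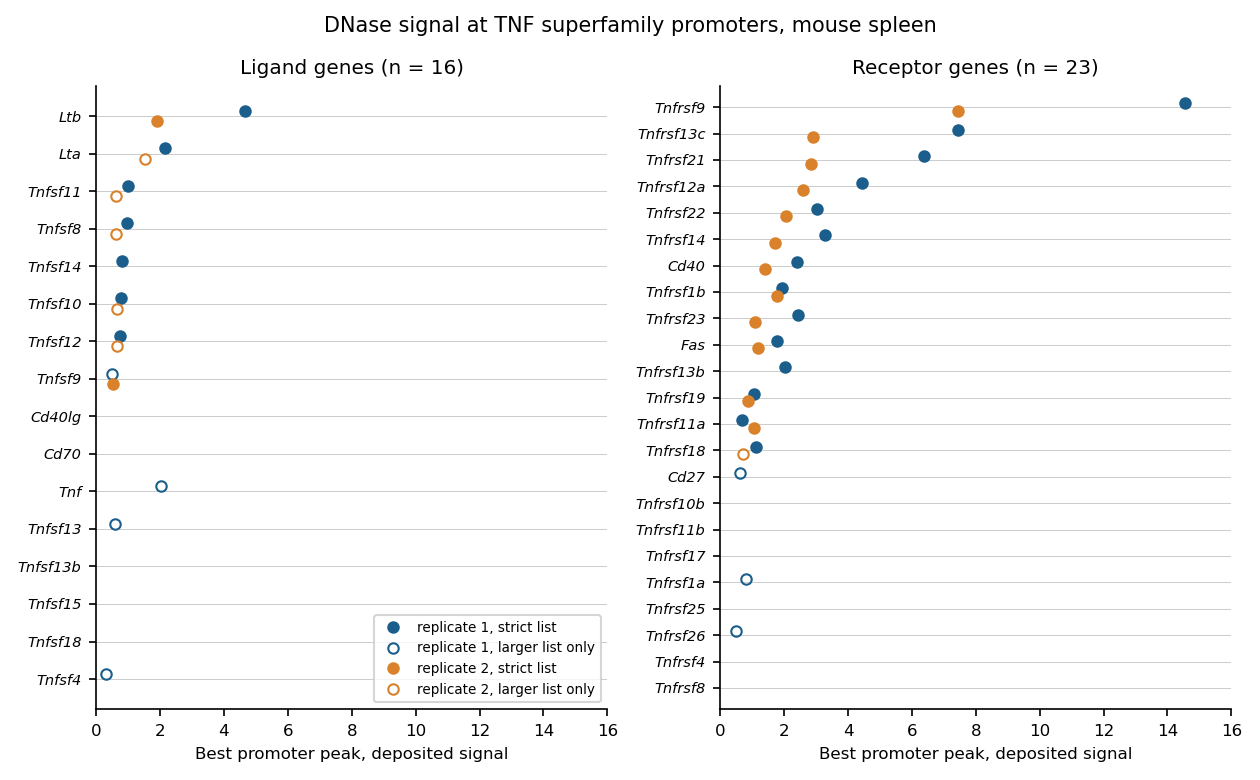
Deposited signal of the best peak within 1 kb of a start site (horizontal axis) for each of 16 ligand genes and 23 receptor genes, with replicate 1 in blue and replicate 2 in orange; open circles are peaks found in the larger list alone and a bare line means no peak in any list. Tnfrsf9 stood furthest right in both libraries (14.5 and 7.43), and Ltb was the one ligand gene with filled circles for both.

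The letters of 6 promoter peaks are printed here because these are the ligand and receptor promoters with the highest signal, plus Cd40, the receptor by which T cells license B cells. They are from the mm10 reference (GRCm38, C57BL/6J; the CAST allele of these hybrids may differ), on the strand of the gene, 5′ to 3′, without bases annotated as untranslated. Capitals mark bases inside a footprint of replicate 1, a short stretch that the deposited footprint list gives as protected from DNase I. Tnfrsf9 is chr4:150914461-150914561 (+), Tnfrsf13c is chr15:82224370-82224520 (-) and Tnfrsf21 is chr17:43016461-43016554 (+). Ltb is chr17:35194281-35194438 (+), Lta is chr17:35204663-35204720 (-) and Cd40 is chr2:165055521-165055626 (+).
Tnfrsf9 promoter: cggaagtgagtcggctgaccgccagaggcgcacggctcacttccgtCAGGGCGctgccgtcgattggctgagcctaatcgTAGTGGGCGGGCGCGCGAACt
Tnfrsf13c promoter: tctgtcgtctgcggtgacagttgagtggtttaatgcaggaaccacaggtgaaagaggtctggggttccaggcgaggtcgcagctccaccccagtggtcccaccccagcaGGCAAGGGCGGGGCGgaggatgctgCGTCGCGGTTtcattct
Tnfrsf21 promoter: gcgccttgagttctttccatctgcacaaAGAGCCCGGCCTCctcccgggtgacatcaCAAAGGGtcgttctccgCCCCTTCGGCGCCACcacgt
Cd40 promoter: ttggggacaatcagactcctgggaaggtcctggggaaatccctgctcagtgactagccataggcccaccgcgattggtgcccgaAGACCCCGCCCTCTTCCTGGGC
Ltb promoter: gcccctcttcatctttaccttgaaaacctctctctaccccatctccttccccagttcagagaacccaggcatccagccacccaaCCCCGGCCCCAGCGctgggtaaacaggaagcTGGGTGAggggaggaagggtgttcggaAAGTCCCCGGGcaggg
Lta promoter: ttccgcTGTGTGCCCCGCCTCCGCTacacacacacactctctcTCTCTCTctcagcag

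A GC box, written GGGCGG or CCGCCC on the other strand, lay in all 4 of the printed receptor promoters and in neither printed ligand promoter. The printed Tnfrsf9 stretch is part of a peak 24 bases from a start site of Park7. Its GC box therefore cannot be given to 1 gene. The printed Lta stretch is 58 bases within an intron, 631 bases from the start site, so the sequence at that start site was not read here. Over 200-base windows the GC box was in 13 of 31 member promoter sites (41.9%), against 52.9% of all promoter peaks. The printed set therefore does not stand for its groups. The ligand gene Tnfsf12 had it, and the receptor genes Tnfrsf13b, Tnfrsf14, Tnfrsf18 and Tnfrsf19 did not. In Tnfrsf9 it starts at base 85 and in Cd40 at base 90, with all 6 bases inside footprints of both libraries. Tnfrsf13c holds it at bases 115 and 120, overlapping by 1 base, with 6 and 5 bases in replicate 1 footprints and 6 and 6 in those of replicate 2. Tnfrsf21 has it at base 72, with 3 bases in a replicate 1 footprint and 1 in replicate 2. Footprints of both libraries touched the GC box at 5 of the 13 member sites, against 57.1% of all promoter peaks holding it. Those 5 include the 4 printed here. The Ltb promoter holds GGAAAGTCCC at base 140, the other strand of GGGACTTTCC. This matches the NF-kB consensus used here (GGGA, any 2 bases, TTCC). Looser forms of these letters were not searched in any printed promoter. In each library 7 of the 10 bases of the Ltb match lay inside a footprint. Genome-wide, footprints of both libraries touched such a match at 18.5% of the 227 promoter peaks that held it. A match of letters describes the sequence and names no bound factor.

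Among ligand genes, the lymphotoxins had the highest promoter signal. Ltb encodes the membrane anchor of the lymphotoxin heterotrimer, and its promoter peak had a signal of 4.66 in replicate 1 and 1.90 in replicate 2 (mean 3.28 ± 1.95, SD, n = 2). Both peaks covered the start site. Lta encodes the lymphotoxin subunit that is secreted when it is not anchored by Ltb. Its strict peak, in an intron of Lta 631 bases downstream of the start site, was called in replicate 1 at 2.14. This peak lay in no list of replicate 2. Bases marked as repeat in the reference made up 49.4% of it, the highest share of the 32 member promoter sites. The larger list of replicate 2 held another Lta peak, 62 bases from a start site, at 1.52. Tnf, the founding cytokine of the family, lies between them and had no strict promoter peak; the larger list of replicate 1 gave 2.02 and neither list of replicate 2 held a peak there. These 3 genes share one locus on chromosome 17.

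Other ligand promoters were weak and mostly seen in replicate 1. Tnfsf11, the ligand that drives osteoclast formation and lymph node development, had 0.999 in replicate 1, 841 bases from its start site. Tnfsf8, the ligand of Tnfrsf8, had 0.974 as the better of 2 peaks. Tnfsf10, which encodes the apoptosis ligand TRAIL, had 0.789, and Tnfsf12, whose product binds Tnfrsf12a, had 0.747. In the larger list of replicate 2 these 4 promoters had signals of 0.626, 0.610, 0.659 and 0.659. The Tnfsf12 peak lay 52 bases from a Tnfsf12 start site and 67 bases from one of the overlapping gene Tnfsfm13, so it cannot be given to one gene.

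Tnfsf14, the ligand of Tnfrsf14, had a promoter peak of 0.797 in replicate 1 and none in either list of replicate 2. Tnfsf9, the ligand of Tnfrsf9, was the one member with a strict promoter peak in replicate 2 and not in replicate 1, at 0.512. The larger list of replicate 1 held it at a near value, 0.487. Tnfsf13, which encodes the B cell and plasma cell ligand APRIL, had 0.604 in the larger list of replicate 1 alone. Tnfsf4, the costimulatory ligand of Tnfrsf4, had 0.311 in that list alone.

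No promoter peak in any list was found for 5 ligand genes: Cd40lg, Cd70, Tnfsf13b, Tnfsf15 and Tnfsf18. Cd40lg encodes the T cell ligand of Cd40, and Cd70 the ligand of Cd27. Tnfsf13b encodes BAFF, the main survival factor of mature B cells and the ligand of Tnfrsf13c. Tnfsf15 and Tnfsf18 encode the ligands of Tnfrsf25 and Tnfrsf18. None of these 5 promoters held a base with a deposited false discovery rate under 0.05 in either library. Such a base was present in replicate 1 at 30 of 39 members (62.4% of all genes), in replicate 2 at 22 (58.2%) and in both at 22 (56.9%). At or under 0.001 the count in both libraries was 15 of 39 members (38.5%), against 51.7% of all genes. Over all genes, 37.5% had no promoter peak in any list, against 11 of 39 members, 5 of them ligands and 6 receptors.

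The receptors for B cell ligands differed in their promoters. Tnfrsf13c, the BAFF receptor of mature B cells, had a signal of 7.44 in replicate 1 and 2.90 in replicate 2 (mean 5.17 ± 3.21, SD, n = 2), with a peak over its start site in each. Cd40 had 2.41 and 1.42, with 4 promoter peaks in replicate 1 and 1 in replicate 2. Tnfrsf13b encodes TACI, a receptor of both BAFF and APRIL. It had 2 promoter peaks in replicate 1 and none in either list of replicate 2. The better of the 2, at 2.03, lay at an alternative start site 15546 bases from the gene's 5′ end, and the peak at the 5′ end had 1.01. Tnfrsf17 encodes BCMA, the APRIL receptor of plasma cells, and had no promoter peak in any list. These 4 receptors thus ran from a peak in all lists to none.

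Costimulatory receptors of T cells had weak promoter peaks or none, apart from Tnfrsf9. Tnfrsf9 encodes a receptor induced on activated T cells, and its promoter had 14.5 in replicate 1 and 7.43 in replicate 2 (mean 11.0 ± 5.02, SD, n = 2), the highest of all members in each library. The peak spans chr4:150914461-150914680 in both libraries and lies 24 bases from a start site of Park7, a gene transcribed in most tissues. Tnfrsf9 was the one member among the 13 whose best peak was within 1 kb of another coding gene's start site, against 22.8% of all genes by replicate 1. Which of these 2 start sites the opening belongs to was not tested.

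Tnfrsf14, the receptor of Tnfsf14 and of the inhibitory receptor BTLA, had 3.29 in replicate 1 and 1.72 in replicate 2. Its best peaks lay 738 and 824 bases upstream of the nearest start site, and the strict list of replicate 1 had 3 further promoter peaks, 2 of them over annotated start sites. The strict list of replicate 2 had none of these 3, and its larger list held 1 of them, at 1.33 against 2.12 in replicate 1. Another of the 3, at 1.37, overlapped no peak in the larger list of replicate 1. Tnfrsf18, a receptor of regulatory T cells, had 1.12 in replicate 1 and 0.708 in the larger list of replicate 2. Cd27, found on T cells, had 0.629 in the larger list of replicate 1 alone. No list held a promoter peak of Tnfrsf4, Tnfrsf8 or Tnfrsf25, receptors of activated T cells. The lowest false discovery rate in replicate 1 was 0.0478 at Tnfrsf25 and 0.0371 at Tnfrsf8, and Tnfrsf4 had none under 0.05.

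Receptors with a death domain, grouped here from background knowledge and not by a fixed list, ran from peaks in both libraries to none in any list. Tnfrsf21, a death domain receptor of lymphocytes and neurons, had 6.38 in replicate 1 and 2.84 in replicate 2 (mean 4.61 ± 2.50, SD, n = 2), with 3 and 2 promoter peaks. Fas, which triggers apoptosis of activated lymphocytes, had 1.77 and 1.20. Tnfrsf1a, the widely expressed TNF receptor with a death domain, had 0.806 in the larger list of replicate 1 and no other promoter peak. Tnfrsf10b, the mouse death receptor of TRAIL, had none in any list, nor did Tnfrsf25, which also has a death domain. The TNF receptor without a death domain, Tnfrsf1b, had 1.94 and 1.76, the closest pair of values among members with a replicate 1 excess.

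Tnfrsf22 and Tnfrsf23 encode TRAIL-binding receptors without a death domain and neighbour each other on chromosome 7. Tnfrsf22 had 3.04 in replicate 1 and 2.07 in replicate 2, and Tnfrsf23 had 2.44 and 1.08. Tnfrsf26, a further gene of that cluster, had 0.504 in the larger list of replicate 1 alone. Sequence copies in this cluster could share reads, and the sources used here do not say how such reads were placed.

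Tnfrsf12a, the receptor of Tnfsf12 in stromal and endothelial cells, had 4.45 and 2.59 (mean 3.52 ± 1.31, SD, n = 2). Tnfrsf19, an orphan receptor studied in epithelia and the nervous system, had 1.07 and 0.862. Tnfrsf11a encodes RANK, the receptor of Tnfsf11 on osteoclast precursors and dendritic cells. It had 0.680 in replicate 1 and 1.06 in replicate 2. It was the one of 13 members with less signal in replicate 1. Tnfrsf11b encodes osteoprotegerin, the soluble decoy of Tnfsf11, and had no promoter peak in any list.

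Most of the open member promoters were weak for a promoter. Across the 13 members with a peak in both libraries the median signal was 3.04 in replicate 1 and 1.76 in replicate 2. Over all 11220 such genes it was 7.94 and 4.82. In each library 1 of 13 members was above the median of all genes, Tnfrsf9. A footprint lay in a promoter peak in both libraries at 12 of the 13 members, against 99.3% of all genes with such peaks. The exception was Tnfrsf14, with 13 footprints in its replicate 1 peaks and 0 in its replicate 2 peak.

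Signal was higher in replicate 1 at 12 of 13 members, against 97.4% of all genes with a peak in both libraries. On the log2 scale the median ratio of replicate 1 to replicate 2 was 0.78 for members and 0.70 for all genes, which takes both libraries to be on 1 scale. Members therefore shared the offset of the whole genome. It ran from -0.64 at Tnfrsf11a to 1.36 at Tnfrsf13c and 1.29 at Ltb. With 1 library on each side these ratios have no replicate check, and pooling and library cannot be told apart.

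**Figure D2:**
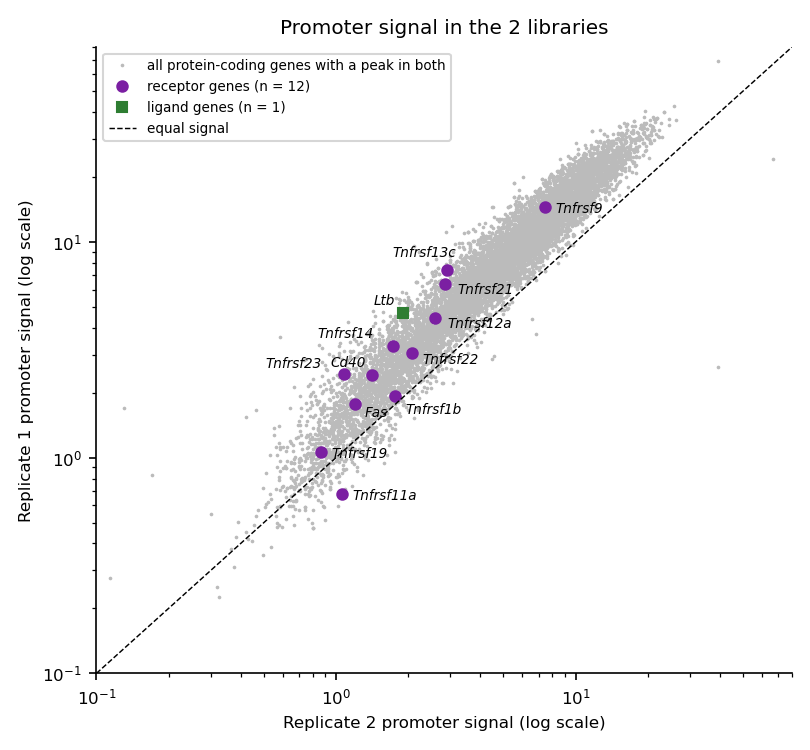
Promoter signal in replicate 2 (horizontal, log scale) against replicate 1 (vertical, log scale) for 11220 protein-coding genes with a strict promoter peak in both libraries (grey), 12 receptor genes (purple) and 1 ligand gene (green). The dashed line marks equal signal, and Tnfrsf11a alone of the 13 members lies under it.

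CpG content was read from the reference as a property that the peaks do not set. In the 500 bases either side of the 5′ end, the ratio of observed to expected CG pairs had a median of 0.311 at ligand genes, 0.409 at receptor genes and 0.552 at all genes. It was over 0.6 at 8 of 39 members (20.5%) and at 45.9% of all genes. Tnfsf9 was the one ligand gene over 0.6, at 0.685. Among receptors, Tnfrsf9 (0.824), Tnfrsf11a (0.765) and Tnfrsf21 (0.753) had the highest ratios. Most members thus have CpG-poor promoters.

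Within each CpG class the pooled share of open promoters was near that of all genes, but ligand and receptor genes lay on either side of it. Of the 8 members over 0.6, 6 (75%) had a strict peak in both libraries, against 82.7% of all genes over 0.6. Of the 31 members at or under 0.6, 7 (22.6%) had one, against 24.4% of all such genes. Split by role, that was 1 of 15 ligand genes (6.67%) and 6 of 16 receptor genes (37.5%), a difference that was not tested. Those 7 were Ltb, Cd40, Fas, Tnfrsf13c, Tnfrsf14, Tnfrsf1b and Tnfrsf23. The other two members over 0.6, without a strict peak in both, were Tnfsf9 and Tnfrsf10b (0.687).

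**Figure D3:**
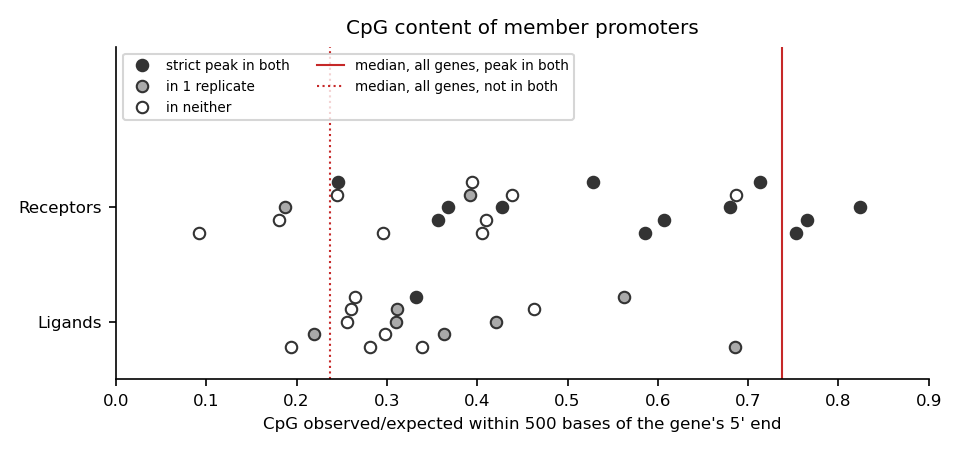
Observed over expected CpG ratio within 500 bases of the gene's 5′ end (horizontal axis) for 23 receptor genes and 16 ligand genes, offset vertically for clarity; black points had a strict promoter peak in both libraries, grey in 1, white in neither. Red lines are the medians of all genes with a peak in both libraries (0.738) and of the rest (0.237), and ligand genes lie mostly near the second.

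Peaks within 20 kb of a start site were counted next, promoter peaks included. At least 1 strict peak was found in both libraries for 25 of 39 members (64.1%), against 65.3% of all genes, which is near the background. In replicate 1 it was 36 of 39 (92.3%, against 72.2% of all genes), and in replicate 2 it was 25 (65.7% of all genes). Members had 3.28 peaks each on average in replicate 1 and 1.36 in replicate 2, while all genes had 2.95 and 2.03. Tnfrsf13b had the most in replicate 1, with 11, but 2 in replicate 2. Its 2 peaks shared by the libraries lay 17395 bases upstream (2.02 and 0.927) and 13176 bases downstream of a start site in an intron of Usp22 (2.20 and 1.24). Lta, Tnf and Tnfrsf14 had 8 in replicate 1 and 2 in replicate 2, and Ltb, Tnfrsf21 and Tnfrsf25 had 7 and 2. Tnfsf13b, Tnfrsf11b and Tnfrsf26 had none in either strict list.

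Merged over both libraries, these peaks formed 114 sites, 15 of them within 20 kb of more than 1 member. Of these, 32 lay at a member's promoter, 21 at the promoter of another coding gene and 61 at neither. The last class comprised 30 sites in introns, 28 between genes and 3 in exons, and 41 of the 61 were in the strict list of replicate 1 alone. Of the replicate 1 peaks near members, 37.4% overlapped a replicate 2 peak, against 53.1% of all its peaks. In promoters the shares were 49% and 73.5%, and elsewhere 26.8% and 37.9%. In the other direction 85.1% of replicate 2 peaks near members were overlapped, against 89.1% of all; the shares were 92.6% and 92.2% in promoters and 75% and 85% elsewhere. These differences in share were not tested.

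The highest signals between 1 and 20 kb from a member were promoters of other genes. The strongest such site of Tnfsf13 was the Eif4a1 promoter (30.3 and 15.1), 12954 bases away. For Tnfsf12 it was that of Senp3 (13.3 and 7.09), for Tnfrsf9 that of Park7 (18.2 and 10.2), for Tnfrsf17 that of Snx29 (15.5 and 11.1) and for Tnfrsf13c that of Cenpm (11.3 and 7.08). Each of these 5 sites lies within 1 kb of the start site of the gene named.

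Outside promoters, the strongest site lay in a coding exon of Ltb, 1115 bases downstream of its start site, at chr17:35195741-35195960. Its signal was 5.62 in replicate 1 and 4.48 in replicate 2 (mean 5.05 ± 0.80, SD, n = 2), above the Ltb promoter in both libraries. It is also within 20 kb of Tnf and Lta. Its sequence is printed with both sites that flank Tnfrsf13c. The latter were picked after their letters had been seen, because both hold the same EBF match. The Ltb site is printed as chr17:35195741-35195920 (+), its whole peak of replicate 1. The Tnfrsf13c sites are chr15:82218951-82219150 (-), downstream, and chr15:82229561-82229760 (-), upstream. Capitals again mark replicate 1 footprints on the gene's strand of mm10.
Ltb exon site: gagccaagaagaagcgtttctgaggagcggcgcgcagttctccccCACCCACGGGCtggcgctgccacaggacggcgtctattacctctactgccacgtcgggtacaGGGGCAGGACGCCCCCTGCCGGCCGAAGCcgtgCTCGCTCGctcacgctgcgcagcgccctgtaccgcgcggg
Tnfrsf13c downstream site: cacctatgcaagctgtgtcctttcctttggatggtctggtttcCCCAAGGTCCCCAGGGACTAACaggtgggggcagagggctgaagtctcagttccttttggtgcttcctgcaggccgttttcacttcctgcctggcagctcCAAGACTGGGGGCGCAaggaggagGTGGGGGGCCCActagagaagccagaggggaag
Tnfrsf13c upstream site: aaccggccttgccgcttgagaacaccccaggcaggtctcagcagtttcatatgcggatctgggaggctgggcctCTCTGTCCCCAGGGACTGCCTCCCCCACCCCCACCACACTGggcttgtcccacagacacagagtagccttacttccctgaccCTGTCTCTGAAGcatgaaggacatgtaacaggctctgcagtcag

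The Ltb exon site holds CCCCCTGCCGG at base 119, a match on the other strand to the CTCF consensus (CC, any 3 bases, AGGGGG), with all 11 bases inside footprints of both libraries. CTCF is the factor best known for binding at the borders and anchors of chromatin loops. The same consensus was touched by footprints of both libraries at all 4 sites of 56 that held it outside promoters, and at 76.8% of the 2314 such peaks that held it genome-wide. One of the others lies 8505 bases upstream of Tnfsf9, where the signal was 2.34 in replicate 1 and 2.33 in replicate 2.

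Both Tnfrsf13c sites hold TCCCCAGGGA, at base 51 and at base 80, a match to the EBF consensus (TCCC, any 2 bases, GGGA). EBF factors take part in B cell development. At the downstream site, 5082 bases from the start site, 10 bases of the match lay in a replicate 1 footprint and 9 in one of replicate 2. At the upstream site, 5192 bases away, all 10 did in each library. Genome-wide, footprints of both libraries touched the match at 23.9% of the 389 peaks outside promoters that held it. The downstream site had a signal of 4.18 and 1.46. The upstream site had 3.73 in replicate 1 and was absent from the strict list of replicate 2, with 1.46 in its larger list. It also holds the RUNX letters as ACCACA at base 107, all 6 of them in footprints of both libraries. Footprints of both libraries touched the RUNX letters at 4 of 15 member sites outside promoters that held them, against 11.4% of such peaks genome-wide. Another site of this locus, 12332 bases upstream in an intron of Cenpm, had 4.31 and 3.91.

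**Figure D4:**
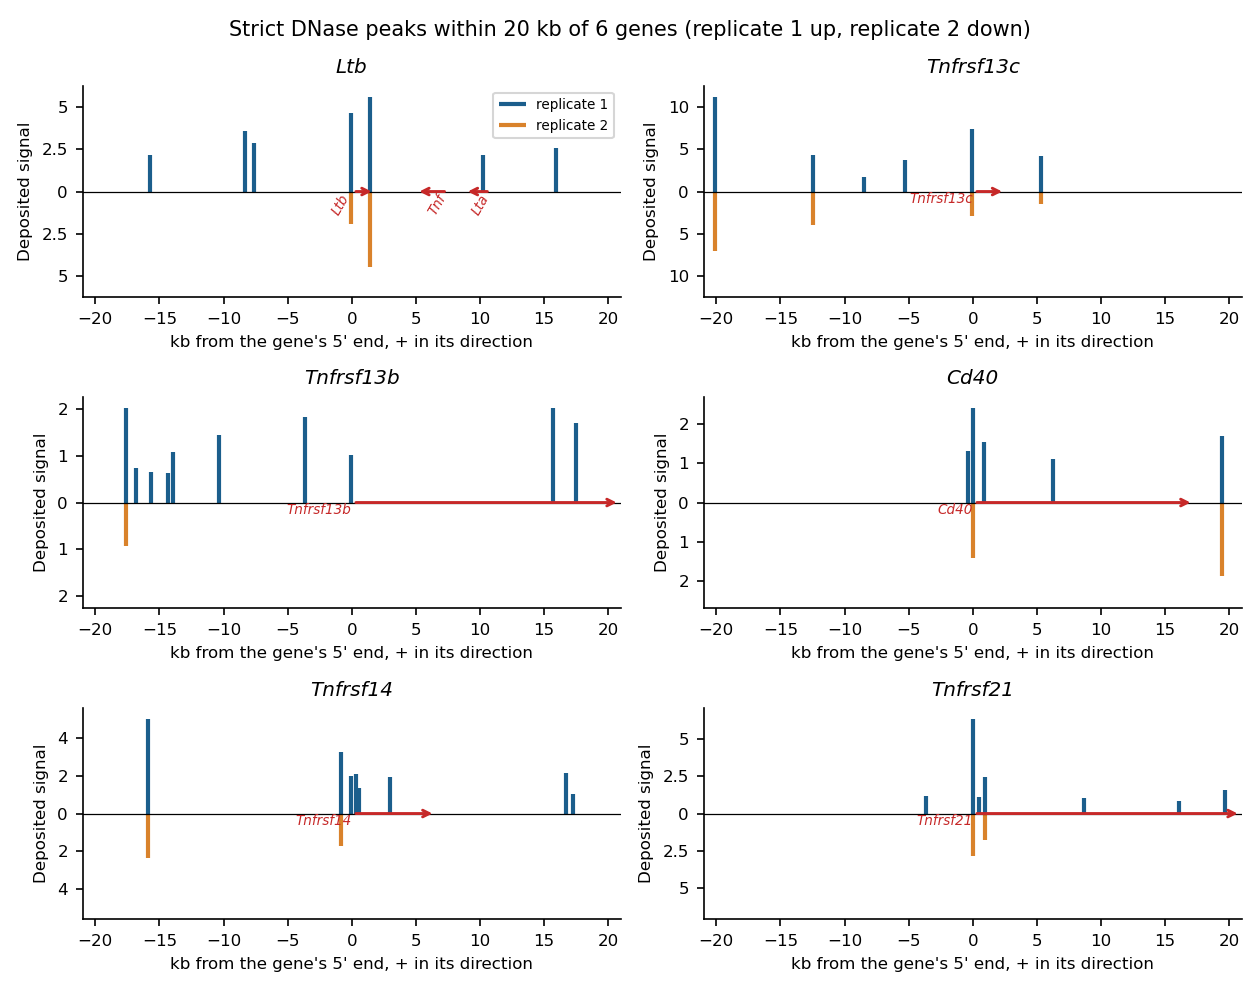
Strict peaks (vertical bars, deposited signal; replicate 1 upward in blue, replicate 2 downward in orange) by distance in kb from the 5′ end of Ltb, Tnfrsf13c, Tnfrsf13b, Cd40, Tnfrsf14 and Tnfrsf21, with gene bodies as red arrows. The Ltb exon bar exceeds the promoter bar in both libraries, and most Tnfrsf13b bars have no partner below the line.

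Several members without an open promoter in both libraries had a site in both elsewhere within 20 kb. For Cd70 it lay 17384 bases upstream, with 2.83 and 2.64. For Tnfsf4 it lay in its own intron, with 1.16 and 0.846, and for Tnfrsf8 an intron site had 1.78 and 1.17. For Cd27 it lay in an intron of Vamp1, 12196 bases away, with 4.36 and 1.68. Tnfrsf14 and Cd40, which do have open promoters, had sites of 5.06 and 2.36 at 15755 bases upstream and of 1.70 and 1.85 at 12325 bases from a start site. The gene that any of these sites acts on was not tested.

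Replicate 1 called 2 further sites upstream of Ltb, in introns of Lst1, 8222 and 7523 bases from the Ltb start site, with signals of 3.60 and 2.87. The strict list of replicate 2 had neither, and its larger list held the first, at 2.18. Tnfrsf23 was the one member with more strict peaks within 20 kb in replicate 2 than in replicate 1, 6 against 1. Of these, 5 were small peaks of 0.179 to 0.244 in the strict list of replicate 2 alone.

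Motifs were searched on both strands in 200-base windows of replicate 1 peaks at members and, for the background, in all replicate 1 peaks. The letters were CCGGAAG for ETS, GAGGAAG for PU.1, TGTGGT for RUNX, GGGCGG for the GC box, TGACGTCA for CRE, TGANTCA for AP-1, AGATAA for GATA and CAGGTG for the E-box. NF-kB, EBF and CTCF had the letters given above, and IRF was GAAA, any 2 bases and GAAA. ETS and PU.1 overlap in GGAAG. At 31 promoter sites of members, ETS was in 6.45%, against 11.5% of all promoter peaks. The NF-kB letters were in 1 of 31, that of Ltb, against 1.10% of all. PU.1 was in 16.1% against 10.5%, RUNX in 16.1% against 8.96%, IRF in 6.45% against 1.65% and GATA in 9.68% against 4.14%. The E-box was in 16.1% against 14.5%, AP-1 in 3.23% against 3.12% and CTCF in 3.23% against 4.42%. CRE and EBF were in 0%, against 2.31% and 0.969%. No ETS, PU.1, IRF, GATA, AP-1, E-box or CTCF match at these 31 sites was touched by footprints of both libraries. Among all promoter peaks holding the letters, that share ran from 10.2% for GATA to 69.7% for CTCF. RUNX was touched at 1 of 5 sites, against 13.4%.

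At the 56 sites of members outside promoters, RUNX was in 26.8% against 20.2% of all such peaks, the E-box in 30.4% against 20.97% and PU.1 in 17.9% against 14.3%. EBF was in 2 sites (3.57%) against 1.41%, both beside Tnfrsf13c, and CTCF in 7.14% against 8.37%. ETS was in 5.36% against 2.86% and NF-kB in 1.79% against 0.955%. The GC box was in 12.5% against 13.1%, GATA in 8.93% against 11.6% and AP-1 in 5.36% against 6.78%. IRF and CRE were in 0%, against 2.54% and 0.503%. The motif differences were not tested. With 31 and 56 sites, 1 site makes up 3.23% and 1.79% of the set.

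The genes around the family were read in the same way. Of 7 family members whose symbols fall outside the rule, 4 (57.1%) had a strict promoter peak in both libraries. This was near the 51.1% of all genes. Relt, a receptor found in lymphoid tissue, had 20.2 and 14.1, above each of the 13 open members. Ltbr, the lymphotoxin beta receptor of stromal cells that binds the Ltb product, had 0.873 and 0.968. Eda had 1.70 and 0.781 and its receptor Edar 0.957 and 1.03. Ngfr had 1.37 in replicate 1 alone, Eda2r 0.201 in the larger list of replicate 1, and Fasl, the ligand of Fas, no promoter peak in any list.

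The signalling genes below the receptors had open promoters almost throughout. Of 33 adaptors, kinases, ubiquitin ligases and caspase regulators, 32 (97.0%) had a strict peak in both libraries, against 33.3% of the ligand and receptor genes and 51.1% of all genes. Their median signal was 8.02 and 5.11. The exception was Ripk3, the necroptosis kinase, with 1.80 in replicate 1 and 1.10 in the larger list of replicate 2. Traf5, an adaptor of costimulatory receptors, had 25.2 and 15.5, and Traf2, which joins TNF receptors to NF-kB, 20.5 and 10.5. Traf1, an adaptor induced on activation, had 1.75 and 1.20. Their CpG ratio had a median of 0.762, and 25 of 33 (75.8%) were over 0.6, against 20.5% of the ligand and receptor genes.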

How the data were processed

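DNase-seq peaks, false discovery rates and footprints of 2 libraries of 1 group were used as deposited on mm10, per the labels. Aligner, peak caller and footprint caller: not given in the sources used here. Peak signal is the authors' deposited value, with its scale not stated; within each library 100% of values were whole multiples of 1 step (tolerance 0.05), 0.00839 in replicate 1 and 0.00813 in replicate 2. Depth is unknown, so no counting interval is given. False discovery rates, in a p-value unit, were deposited for runs of bases under 0.05. The score column of the deposited footprint lists is a constant, so footprints were counted only. CAST reads mapped to this reference may be lost where alleles differ, which was not tested here.

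A promoter reached 1000 bases to each side of every coding start site in GENCODE M21; a gene's signal was its best peak there. Peaks within 20000 bases were nearby peaks, and overlap meant at least 1 base. With 1 group no test was made, and counts stand beside the same share over all 21938 genes. Each mean ± SD is over 2 libraries.

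The members, gene lists, motifs and rules were chosen with earlier results of these data known. Every member is named. Distal sites were named for the 5 members with the highest signal between 1 and 20 kb; sequences were printed for the top 3 receptor and 2 ligand promoters, Cd40, Tnfrsf13c, Ltb and the strongest site outside promoters. Other distal sites, and the Tnfrsf13c flanking sites, were picked after their values were seen. Of the T cell markers, Trac is not analysed here. Alternatives changed the list, window, peak threshold and library. Python 3.11.15, numpy 2.4.6, pandas 2.3.3 and matplotlib 3.10.9 were used. On simulated data for chromosome 1 (1208 genes), 200 of 200 planted promoter peaks were found.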

Additional observations from a re-analysis of the deposited data

How the results depend on the processing

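The promoter counts depended on which peaks were listed. In the larger lists 20 members and 7 ligand genes had a promoter peak in both libraries, against 13 and 1 in the strict lists; the all-gene share there was 56.1%. With the strongest 50% of each list, 6 members and 5 receptor genes had one, and 43.0% of all genes. With 1 library left out, the higher count each time was the one without replicate 2. Promoter counts ran from 14 to 21 for members, 2 to 7 for ligand genes and 12 to 14 for receptor genes. The all-gene share ran from 51.4% to 56.7%. Members with a peak within 20 kb ran from 25 to 36, and all genes from 65.7% to 72.2%. Members with a footprint in a promoter peak ran from 12 to 21, and all genes from 51.1% to 56.2%. The median log2 ratio of members less that of all genes, 0.07, was -0.014 in the larger lists, so the members' offset from all genes has no stable direction. Narrower and wider promoter windows, the gene's 5′ end alone, equal numbers of strongest peaks, the middle of the peak and, added after seeing the data, the nearest start site moved no promoter count by over 1.5 times. The cause was not tested. No paired analysis was possible because there is 1 group. Depth is unknown, so a missing peak is a peak not listed, not closed chromatin.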
